A study of Mus musculus with 38 samples.

Results

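The genes described here carry acetyl-CoA towards cholesterol: Hmgcs1, Idi1, Fdps, Fdft1 and Sqle code for enzymes of the pathway, and Insig1 and Srebf2 code for proteins that set its rate. They were taken by name, and every probe of the array assigned to 1 of the 7 genes was read on every array. The table used here held 10 probes for 6 of the 7 genes, out of 25697 probes for 16593 genes, and Fdft1 was not analysed here. Hmgcs1, Idi1, Fdps and Srebf2 had 1 probe each, Sqle had 2 and Insig1 had 4. Where a gene had several probes, the probe of highest mean signal (probe 1) stood for the gene in counts and medians, and the others are given beside it.

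Cholesterol is made in the cytoplasm and endoplasmic reticulum by a long chain of enzymes that begins with the mevalonate pathway, passes through farnesyl diphosphate and squalene, and ends with the modification of the sterol rings. When sterols in the endoplasmic reticulum are low, SREBP2, the product of Srebf2, is carried to the Golgi, cut there and sent to the nucleus, where it switches on nearly the whole set of enzyme genes together with Insig1. INSIG1 holds the precursor back in the endoplasmic reticulum when sterols are plentiful, so that its own induction closes a feedback loop. In nervous tissue the pathway is best known for feeding the growth of membrane and myelin, since the brain makes its own cholesterol, and sterols also shape the membranes of hair cells.

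The samples were cochlear explants of early postnatal C57BL/6 mice, kept in culture after a short exposure to kainate (KA), an agonist of ionotropic glutamate receptors that strips the afferent endings from hair cells, or without exposure (control). At 5, 24 or 72 h each explant was cut into the spiral ganglion (SG), with the neuron cell bodies and their glia, and the rest, called the organ of Corti (OC), with hair cells and supporting cells, and RNA of each piece was hybridised to Illumina MouseRef-8 bead arrays. The 38 arrays fell into 12 groups. In SG there were 4 KA and 4 control arrays at 5 h, 3 KA and 2 control arrays at 24 h, and 3 KA and 3 control arrays at 72 h. In OC there were 4 KA and 3 control arrays at 5 h, 2 KA and 4 control arrays at 24 h, and 3 KA and 3 control arrays at 72 h. According to the methods, each treatment and time was planned with 4 explants, kainate explants came from separate animals, and RNA of low integrity was left out, so the arrays of a group are different explants and SG and OC arrays of the same time, treatment and number are likely to share an explant. For control explants nothing used here says that each came from its own animal, so the p-values measure the spread between explants. RNA came from whole pieces of tissue, in which fewer cells of a type and less RNA per cell cannot be told apart.

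Expression is given as log2 of the signal after quantile normalization, so that a difference of 1 is a doubling. Differences were tested with limma over all 25697 probes. A KA effect was called where the unadjusted p was under 0.005, as the study did, and a difference between tissues or times at a Benjamini-Hochberg adjusted p under 0.05. Between 10043 and 12171 probes were above background on an array, and arrays of a group correlated at 0.981 to 0.994. The dissection was visible in the markers. The mean log2 signal of 11 hair cell markers, out of 12 listed, lay between 8.50 and 9.38 on SG arrays, against 10.18 to 10.73 on OC arrays. That of 14 neuron markers lay between 8.73 and 10.02 on SG arrays, against 8.86 to 9.23 on OC arrays, with overlap. SG control array 2 at 24 h stood apart: over the 1000 most variable probes its mean correlation with the OC arrays was 0.73, where no other SG array passed 0.603, its hair cell marker level of 9.38 was the highest in SG, and its macrophage and leukocyte marker level of 8.16, over 10 markers, was the lowest in SG. KA effects in SG at 24 h are therefore also given without it.

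Promoter windows were read first, since SREBP2 acts through a sterol regulatory element, usually with the CCAAT-binding factor NF-Y or with Sp1 beside it. RefSeq promoter windows in GRCm38.p6, from 250 bases before to 50 bases after the start site, were at hand for 4 of the 7 genes, all on the + strand. They are Hmgcs1 at chr13:119690101-119690400, Idi1 at chr13:8885356-8885655, Insig1 at chr5:28071162-28071461 and Srebf2 at chr15:82147019-82147318. They are shown so that the windows with and without the element can be set side by side, with capitals on each match to the sterol regulatory element TCACNCCAC, its shorter form CACNCCAC, which lies within the first, and the CCAAT box, searched on both strands.
Hmgcs1: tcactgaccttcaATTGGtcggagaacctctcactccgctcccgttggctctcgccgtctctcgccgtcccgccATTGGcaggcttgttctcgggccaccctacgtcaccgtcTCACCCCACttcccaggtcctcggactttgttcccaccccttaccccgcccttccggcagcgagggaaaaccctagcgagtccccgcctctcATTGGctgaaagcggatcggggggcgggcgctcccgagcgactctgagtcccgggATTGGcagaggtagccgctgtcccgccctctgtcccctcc
Idi1: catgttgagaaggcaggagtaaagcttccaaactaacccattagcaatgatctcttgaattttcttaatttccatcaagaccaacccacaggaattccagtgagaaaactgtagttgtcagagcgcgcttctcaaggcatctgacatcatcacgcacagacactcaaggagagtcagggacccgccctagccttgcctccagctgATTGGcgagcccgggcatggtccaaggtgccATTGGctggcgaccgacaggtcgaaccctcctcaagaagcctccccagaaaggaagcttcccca
Insig1: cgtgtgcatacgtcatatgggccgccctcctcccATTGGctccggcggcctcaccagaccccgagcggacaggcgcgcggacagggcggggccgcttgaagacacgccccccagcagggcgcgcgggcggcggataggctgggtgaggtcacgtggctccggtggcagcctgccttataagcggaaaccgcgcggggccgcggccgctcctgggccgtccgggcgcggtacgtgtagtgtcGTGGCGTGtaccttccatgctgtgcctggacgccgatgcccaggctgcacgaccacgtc
Srebf2: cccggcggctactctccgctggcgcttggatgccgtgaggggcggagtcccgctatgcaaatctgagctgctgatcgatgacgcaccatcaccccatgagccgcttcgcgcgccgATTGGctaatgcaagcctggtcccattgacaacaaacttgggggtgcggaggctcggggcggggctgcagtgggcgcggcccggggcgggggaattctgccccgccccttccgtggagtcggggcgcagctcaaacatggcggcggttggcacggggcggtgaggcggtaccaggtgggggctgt
The Hmgcs1 window held the full element once, as TCACCCCAC at -137, and 4 CCAAT boxes, all read as ATTGG, at -237, -176, -45 and 11. The Insig1 window held the short form on the reverse strand, as GTGGCGTG at -9, a CCAAT box at -216, and an E-box (CACGTG) at -101 that is left in lower case. Idi1 had CCAAT boxes at -45 and -14 and Srebf2 had 1 at -135, and neither held the element in either form. Of 32544 different promoter windows of the same length, 1.24% held the full element, 6.23% the short form, 37.4% a CCAAT box and 7.17% an E-box. Among 18 other enzymes of the pathway, 16 had a window, of which 14 held a CCAAT box, 0 the full element and 1 the short form. A match is a description of these letters, and no match says only that they are not in this window.

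Of the 6 genes, Hmgcs1, Sqle, Fdps and Srebf2 were detected on all arrays. Hmgcs1, which makes HMG-CoA, was above background (detection p under 0.01) on 38 of 38 arrays, as were both probes of Sqle, the squalene epoxidase, Fdps, which makes farnesyl diphosphate, and Srebf2. Idi1, which interconverts the isoprene isomers, was dimmer and above background on 27 of 38 arrays, 9 of 19 in SG and 18 of 19 in OC. The Insig1 probes were above background on 33, 34, 28 and 0 arrays. The fourth, with a log2 signal between 6.80 and 7.40, is at background throughout and is not described further.

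**Figure D1:**
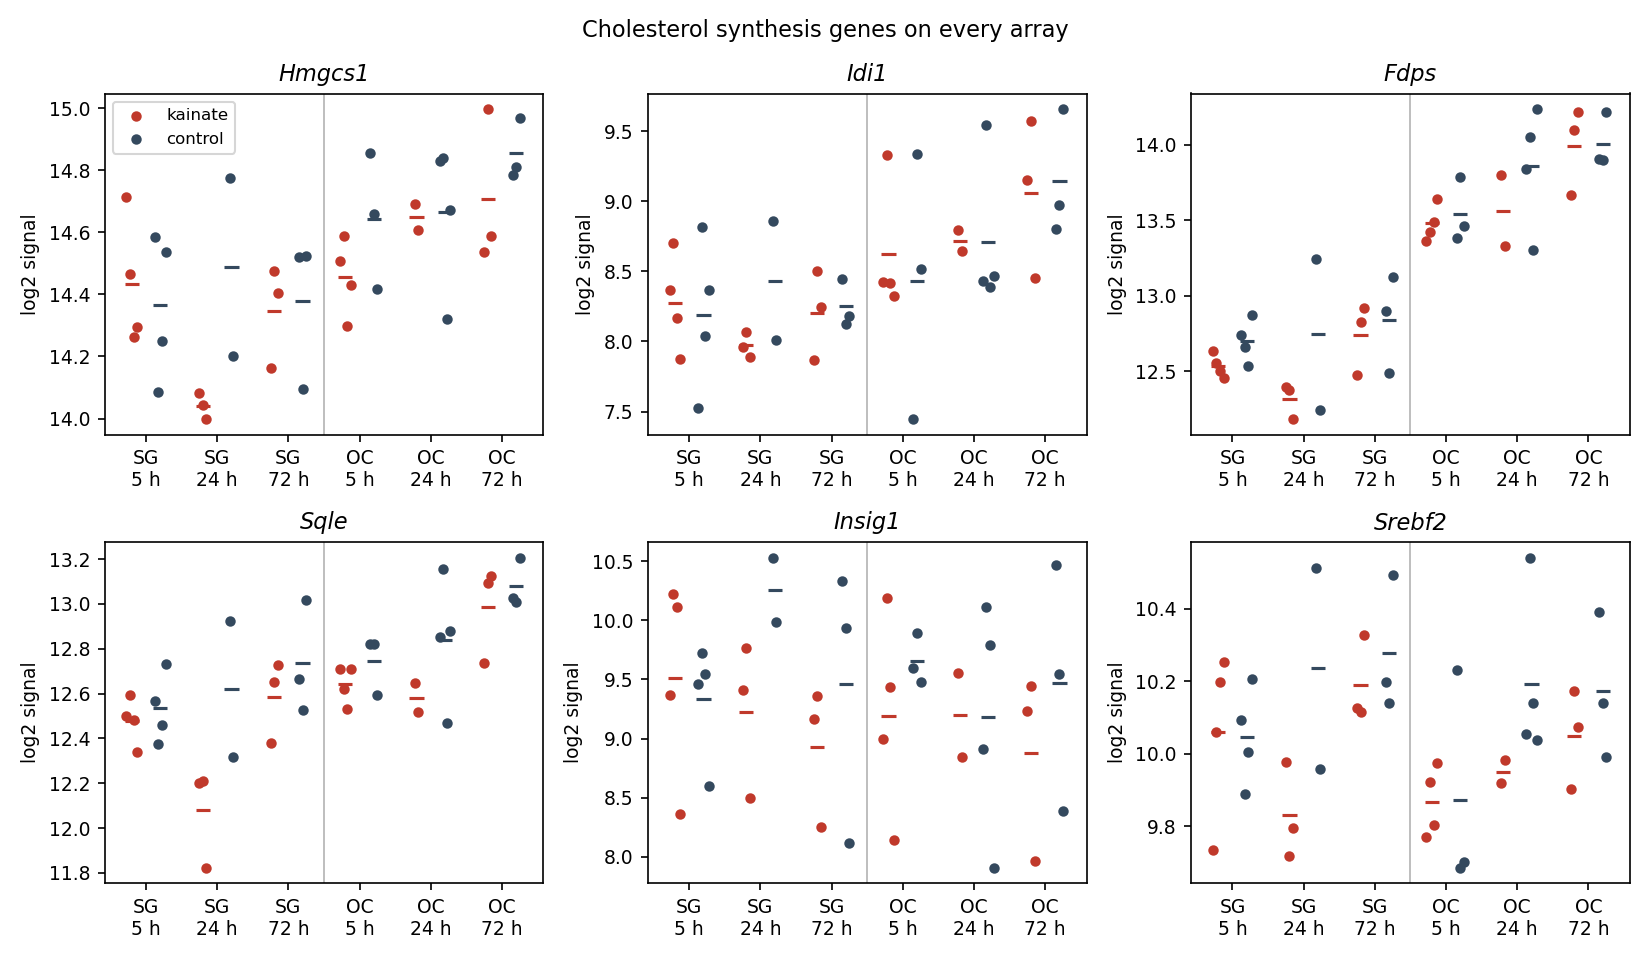
Log2 signal of the 6 genes with a probe (vertical axes, each with its own range) on the 38 arrays, KA left of control within each tissue and time; each point is 1 array and bars are group means. Fdps on OC arrays (13.30 to 14.24) lay above all SG arrays (12.18 to 13.24).

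The tissues differed in most of these genes. Over the 6 combinations of time and treatment, 4 of the 6 genes were lower in SG than in OC (Fdps, Idi1, Hmgcs1 and Sqle), and Insig1 by its probe 1 and Srebf2 were not called. Of all probes 33.0% were called in this comparison, and 17.2% were called lower in SG. The median difference of the 6 genes was -0.31, against -0.01 for all probes.

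Fdps differed most of the 6 genes. Its log2 signal had a lowest, median and highest value of 12.18, 12.55 and 13.24 on the 19 SG arrays, against 13.30, 13.78 and 14.24 on the 19 OC arrays. The 2 ranges did not touch, which was so, in the direction of lower in SG, for 1.18% of all probes. The mean difference was -1.09 ± 0.0839 (SE), a fold of 0.469, with an adjusted p of 1.52e-12 in limma.

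Fdps was called lower in SG in each of the 6 conditions. In explants after KA the difference was -0.94 (5 h), -1.24 (24 h) and -1.25 (72 h), with adjusted p-values in limma of 0.000187, 0.000315 and 4.09e-05. In control explants it was -0.84 (5 h), -1.11 (24 h) and -1.17 (72 h), with adjusted p-values of 0.00199, 0.000744 and 9.13e-05. SG and OC arrays did not overlap in any of the 6, as did 8.77, 18.0 and 11.6% of all probes after KA and 11.5, 14.3 and 12.7% in control explants, all lower in SG. The shares of all probes called lower in SG were 7.80, 4.25 and 5.56% after KA and 7.24, 3.99 and 5.85% in control explants, in the same order of times. The value for 24 h control rested on 2 SG arrays that differed, with 13.24 on array 2 and 12.25 on array 3. Without array 3 the difference was -0.61 with an adjusted p of 0.234, and without array 2 it was -1.61.

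Hmgcs1 and Sqle differed by less, and their ranges overlapped. Hmgcs1 had a lowest, median and highest log2 signal of 14.00, 14.30 and 14.78 in SG, against 14.30, 14.66 and 15.00 in OC, a difference of -0.32 ± 0.0656 (SE) and an adjusted p of 0.000182 in limma. Probe 1 of Sqle had 11.82, 12.50 and 13.02 in SG, against 12.47, 12.82 and 13.21 in OC, a difference of -0.31 ± 0.0626 (SE) and an adjusted p of 0.000175. Both enzymes thus had lower SG medians with an overlap in range. The second Sqle probe, which was dimmer, gave 8.42, 8.84 and 9.62 in SG, against 8.85, 9.51 and 10.10 in OC, and a larger difference of -0.57 ± 0.0923 (SE), with an adjusted p of 6.95e-06. In single conditions Hmgcs1 was called lower in SG after KA at 24 h (-0.61, adjusted p in limma of 0.0272) and in control explants at 72 h (-0.48, adjusted p of 0.0485), and each of these calls was lost when any of 4 single arrays was left out, and with raw signals centred on the array median (adjusted p of 0.294 and 0.073). Probe 1 of Sqle was called in none of the 6 conditions, and its second probe after KA at 5 h (-0.62, adjusted p in limma of 0.0274) and in control explants at 24 h (-0.99, adjusted p of 0.0061). The first of these was lost without any of 5 of the 8 arrays and the second without 1 of 6.

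Idi1 had a lowest, median and highest log2 signal of 7.53, 8.17 and 8.86 in SG, against 7.45, 8.65 and 9.66 in OC. Its ranges overlapped from end to end, and the mean difference of -0.56 ± 0.151 (SE) had an adjusted p of 0.00359 in limma.

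The regulators Srebf2 and Insig1, the second by its probe 1, were not called. Srebf2 had a lowest, median and highest log2 signal of 9.72, 10.11 and 10.51 in SG, against 9.69, 9.99 and 10.54 in OC, with a difference of 0.09 (95% interval -0.04 to 0.22) that was not called. Probe 1 of Insig1 had 8.12, 9.46 and 10.53 in SG, against 7.91, 9.45 and 10.47 in OC, with a difference of 0.19 and an interval of -0.30 to 0.68. Its probes 2 and 3 were lower in SG, by -0.18 ± 0.069 (SE, adjusted p in limma of 0.0472) and -0.30 ± 0.0782 (SE, adjusted p of 0.00289). The call of probe 2 was lost in 24 of 38 fits that each left out an array, with neqc (adjusted p of 0.0677), with array weights (0.085) and with batch as a term (0.0583), and that of probe 3 in 0 of 38 such fits.

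The tissue difference was also read within the 5 array batches marked in the study's clustering plot, which each held both tissues, though in unequal mixtures of times and treatments. In the batches drawn in black, blue, green, pink and purple, SG minus OC was -1.49, -1.36, -0.86, -1.08 and -0.67 for Fdps, -0.67, -0.26, -0.17, -0.34 and -0.07 for Hmgcs1, and -0.69, -0.43, -0.07, -0.18 and -0.19 for Sqle. All 15 values were negative. Idi1 was negative in 4 batches, between -1.26 and -0.25, and 0.07 in the purple batch.

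**Figure D2:**
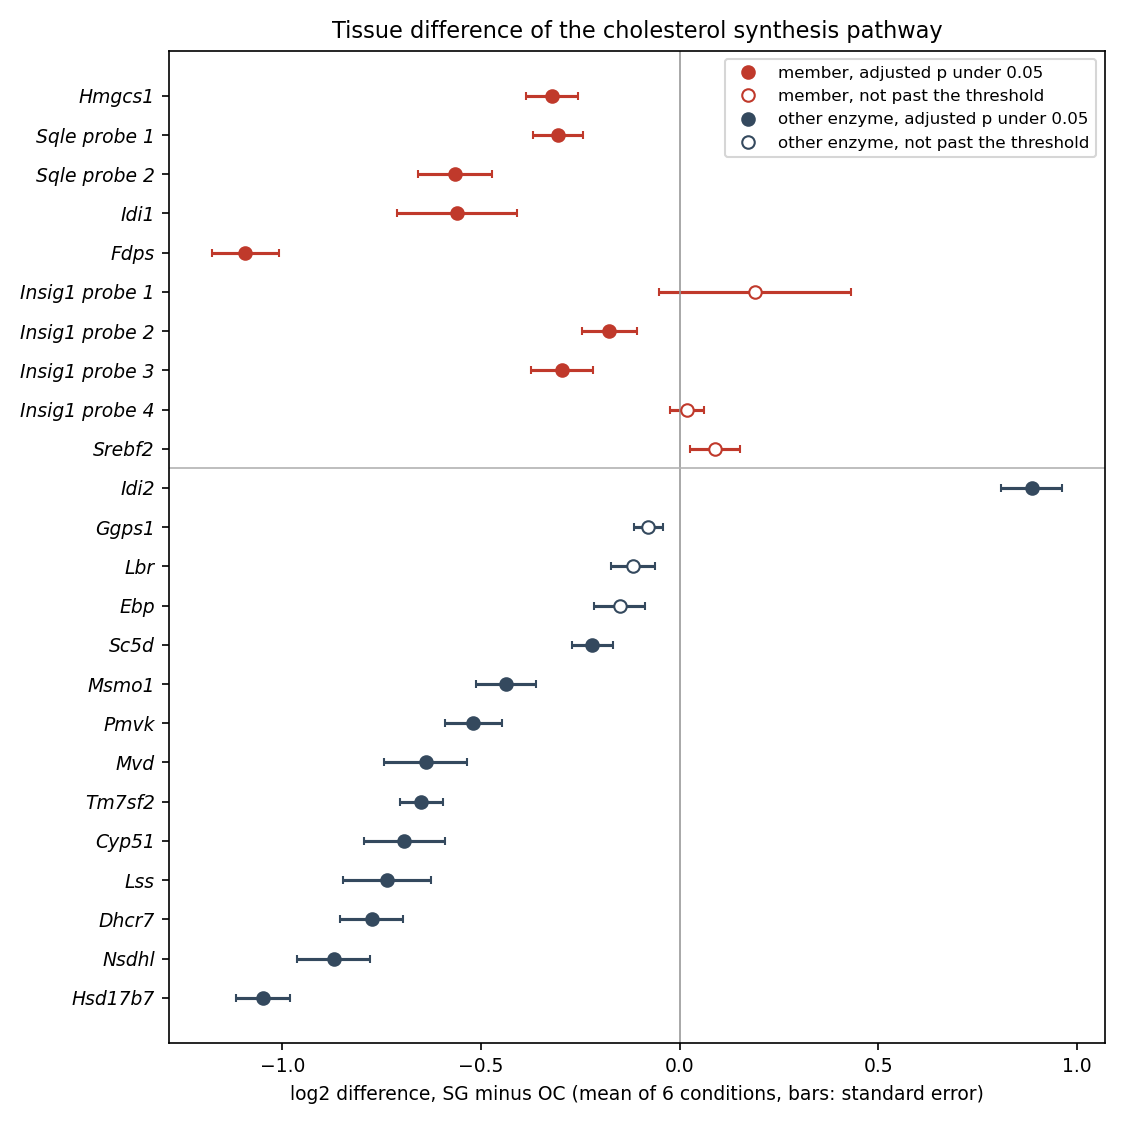
Log2 difference SG minus OC, averaged over the 6 conditions (horizontal axis), for the probes of the genes described (red) and for 14 other enzymes of the pathway (blue); bars are standard errors and filled points have an adjusted p under 0.05. Fdps (-1.09) and Hsd17b7 (-1.05) lie farthest to the left, and Idi2, which was above background on 0 of 19 OC arrays, lies alone on the right.

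Most of the other enzymes of cholesterol synthesis were also lower in SG. Of 18 listed, 14 had a probe, and 10 of these were lower in SG than in OC, 1 was higher and 3 did not pass the test, with a median of -0.58. Hsd17b7, a ketoreductase that acts on the sterol ring, differed by -1.05, Nsdhl, which acts in the same demethylation, by -0.87, and Dhcr7, which makes the last reduction to cholesterol, by -0.78, all with adjusted p-values in limma of 1.78e-09 or less. Lss, which closes the epoxide of squalene into the first sterol, differed by -0.74, and Cyp51, the lanosterol demethylase, by -0.69. Msmo1, the methylsterol oxidase, differed by -0.44. Adjusted p-values in limma were 1.69e-06, 1.25e-06 and 1.48e-05 for Lss, Cyp51 and Msmo1. Tm7sf2, Mvd, Pmvk and Sc5d were lower by -0.65, -0.64, -0.52 and -0.22, and Ebp, Lbr and Ggps1 were not called. Idi2, a second isomerase, was the exception and was called higher in SG (adjusted p of 2.39e-11). It was above background on 11 of 19 SG arrays and 0 of 19 OC arrays, so no fold is given.

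Gene lists beside the pathway held calls in both directions, where 15.8% of all probes were called higher and 17.2% lower in SG. Of 9 genes of SREBP processing with a probe, 2 were higher in SG and 1 lower. The lower gene was Srebf1, which codes for the SREBP of fatty acid synthesis, at -0.17 (adjusted p in limma of 0.0392). Of 12 genes of cholesterol uptake and transport within the cell, 6 were higher in SG and 2 lower, with Vldlr, a lipoprotein receptor, at 0.91 and Gramd1b, a carrier of sterol from the plasma membrane, at 0.83. Of 12 genes of sterol efflux, 5 were higher and 1 lower. Apoe, the apolipoprotein that glia release, differed by 0.22 (adjusted p of 0.0947), and Abca1, the efflux pump, was above background on 0 arrays. Of 15 genes of fatty acid synthesis 4 were higher and 5 lower, and of 11 genes of prenylation 2 were higher and 3 lower. The markers moved with this comparison too: supporting cell and epithelium markers (10 of 12) lay between 10.58 and 11.33 in SG, against 11.27 to 11.97 in OC, and fibroblast markers between 10.54 and 11.96 in SG, against 10.45 to 11.16 in OC. The tissues differ in cell types by dissection, and the part of this in the differences above was not tested.

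In SG at 24 h all 6 genes had a lower mean after KA than in control explants, and 1 of them, Sqle, passed the threshold. Of all probes 1.10% passed it in this comparison and 0.432% passed it as lower. The median difference of the 6 genes was -0.45, against -0.01 for all probes, of which 52.3% were negative. This is the comparison that holds the SG control array that stood apart, so each gene is given by array.

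Probe 1 of Sqle had a log2 signal of 12.20, 12.21 and 11.82 on the KA arrays, against 12.92 and 12.32 on the control arrays. The KA arrays all lay below both control arrays. The difference was -0.54 ± 0.172 (SE), a fold of 0.687, with an unadjusted p of 0.00351 and an adjusted p of 0.416 in limma. The second Sqle probe had 8.95, 8.59 and 8.42 on the KA arrays, against 8.70 and 8.57 on the control arrays, so that it overlapped and differed by 0.01 ± 0.253 (SE).

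Hmgcs1 had 14.08, 14.04 and 14.00 on the KA arrays, against 14.78 and 14.20 on the control arrays. The groups did not overlap, and the difference of -0.45 ± 0.18 (SE) had an unadjusted p of 0.0185 in limma. Fdps had 12.40, 12.38 and 12.18 on the KA arrays, against 13.24 and 12.25 on the control arrays, and its difference of -0.43 (unadjusted p in limma of 0.0736) came with an overlap, since control array 3 lay among the KA arrays. Idi1 had 7.96, 8.07 and 7.89 on the KA arrays, against 8.86 and 8.01 on the control arrays. It differed by -0.46 with a standard error of 0.415, and 1 array of each group was above background.

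Srebf2 had 9.98, 9.72 and 9.79 on the KA arrays, against 10.51 and 9.96 on the control arrays. Here too the upper KA array reached the lower control array, and the difference was -0.41 ± 0.173 (SE), with an unadjusted p of 0.0252 in limma. Probe 1 of Insig1 had 9.41, 9.76 and 8.49 on the KA arrays, against 10.53 and 9.99 on the control arrays, a difference of -1.04 with a standard error of 0.663. Its probes 2 and 3 differed by -0.17 and -0.02. In all, 3 of the 6 genes did not overlap between KA and control arrays, with the KA arrays lower, as did 11.9% of all probes.

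**Figure D3:**
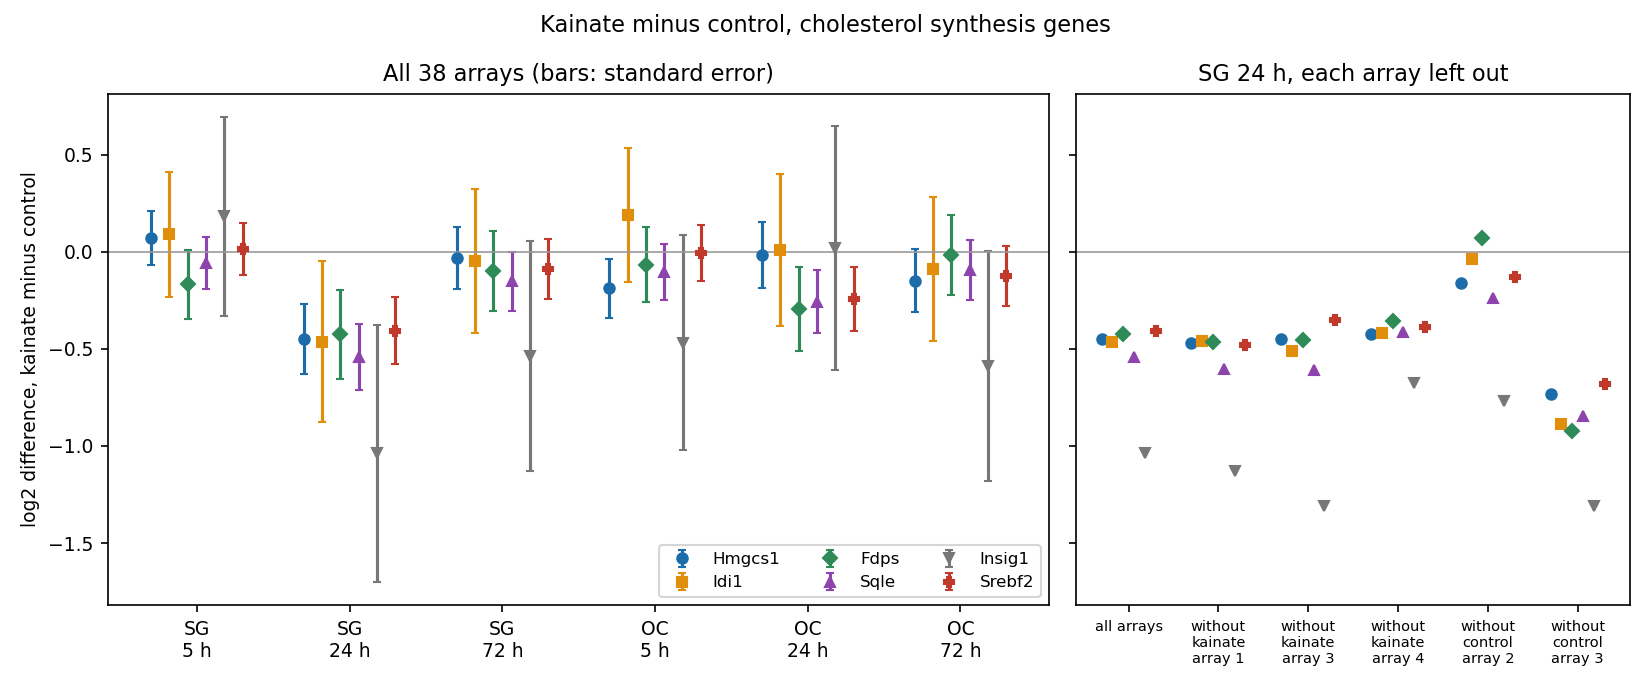
Log2 difference KA minus control (vertical axes) of the 6 genes, at left for each tissue and time with standard errors, and at right for SG at 24 h with each of the 5 arrays left out in turn. Without control array 2 the 6 differences lie between -0.77 and 0.07, and without control array 3 between -1.31 and -0.68.

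These differences depended on which control array was kept. In every one of the 6 genes control array 2 was the brighter of the pair. Without it the differences were -0.24 for Sqle (unadjusted p in limma of 0.245), -0.16 for Hmgcs1, -0.04 for Idi1, 0.07 for Fdps, -0.77 for Insig1 and -0.13 for Srebf2, with a median of -0.14 and 0 genes called. The second Sqle probe then differed by 0.08, and probes 2 and 3 of Insig1 by -0.11 and 0.08. Without control array 3, which left array 2 as the only control array, the median was -0.87. Without KA array 4 the difference of Sqle was -0.41, with an unadjusted p of 0.0304, and its call was also lost when SG arrays were fitted alone (-0.54, p of 0.00674), with array weights (-0.49, p of 0.00804), with raw signals centred on the array median (-0.48, p of 0.0399) and as the mean of its probes (-0.26, p of 0.166). On array 2 the hair cell marker level was 9.38 and the supporting cell marker level 11.33, against 9.03, 9.02 and 8.81 and 11.19, 11.02 and 10.80 on the KA arrays and 8.79 and 10.79 on control array 3. Its macrophage marker level was 8.16, against 9.19, 8.93 and 10.15 on the KA arrays and 9.05 on control array 3. Of the other marker lists, red blood cell markers overlapped (8.56 to 8.92 after KA, against 8.56 to 8.97). The rest separated the treatments with KA higher, and the share of all probes that did so is not given. The level of 14 neuron markers was 9.20, 9.42 and 9.36 on the KA arrays, against 9.08 and 9.11 on the control arrays, and that of 13 Schwann cell and myelin markers 9.33, 9.32 and 9.26 on the KA arrays, against 9.03 and 9.19 on the control arrays. Fibroblast markers (11.47, 11.60 and 11.96 after KA, against 11.20 and 11.38) and endothelial markers (8.90, 9.07 and 9.08 after KA, against 8.70 and 8.87) did not overlap either. The part of these in the differences was not tested. KA arrays belonged to the batches drawn in black and blue, control arrays to those drawn in purple and green, so batch and treatment cannot be told apart here.

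Of the 14 other enzymes, 12 had negative differences in SG at 24 h and 0 were called, with a median of -0.31. Without control array 2, 10 of 14 were negative, 0 were called and the median was -0.06. Msmo1 differed by -0.59 (unadjusted p in limma of 0.00722), Cyp51 by -0.60 (0.04), Dhcr7 by -0.51 (0.0268) and Lss by -0.40 (0.195). Without control array 2 these were -0.51 for Msmo1 (0.0617), -0.23 for Cyp51 (0.51), -0.42 for Dhcr7 (0.144) and 0.00 for Lss (0.999). No gene of SREBP processing, uptake or fatty acid synthesis was called in this comparison. Among sterol efflux genes Cyp27a1, which oxidises the side chain of cholesterol, was called higher, with an unadjusted p of 0.00126 and an adjusted p of 0.311 in limma. It lay between 8.56 and 8.93 on the KA arrays, all above background, against 7.91 and 8.01 on the control arrays, neither above background. Without control array 2 its call was lost (unadjusted p of 0.0149).

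In the other 5 comparisons of KA with control explants, 0 of the 6 genes were called, where the share of all probes called was 0.389% in SG at 5 h and 0.179% at 72 h, and 0.136, 0.272 and 0.257% in OC over the 3 times. The median differences of the genes were 0.04 (5 h) and -0.09 (72 h) in SG. In OC they were -0.08 (5 h), -0.13 (24 h) and -0.11 (72 h). Hmgcs1 in SG at 5 h, for example, had 14.71, 14.47, 14.26 and 14.30 on the KA arrays, against 14.59, 14.09, 14.25 and 14.54 on the control arrays, and the groups overlapped. At 72 h in SG the KA arrays had 14.16, 14.47 and 14.40, against 14.52, 14.09 and 14.52 on the control arrays. Within the batches that held both treatments, the median of the 6 genes for SG was -0.03 and -0.08 (5 h) and -0.14 and 0.23 (72 h). For OC it was -0.05 and -0.23 (5 h), 0.27 (24 h), and -0.45 and 0.14 (72 h). These values, from 1 array of a treatment in nearly every case, had both signs at 72 h in both tissues.

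The second Sqle probe alone passed the threshold in OC at 24 h. It had 8.92 and 8.85 on the KA arrays, against 9.41, 9.97, 9.11 and 10.03 on the control arrays, without overlap, as was the case for 6.92% of all probes with KA lower. The difference was -0.74 ± 0.24 (SE), with an unadjusted p of 0.00407 and an adjusted p of 1.00 in limma. Probe 1 had 12.65 and 12.52 on the KA arrays, against 12.85, 13.16, 12.47 and 12.88 on the control arrays, and overlapped. In the pink batch, which held 1 array of each treatment, the difference of the second probe was -0.19, and its call was lost without any of 4 of the 6 arrays. It was lost as well with batch as a term (-0.56, unadjusted p in limma of 0.0192), with neqc background correction (p of 0.00579) and with OC arrays fitted alone (p of 0.00788).

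Averaged over the 3 times, the median difference of the 6 genes between KA and control explants was -0.19 in SG and -0.12 in OC, and 0 of 6 were called, against 0.358 and 0.202% of all probes. Sqle came nearest to the threshold, in SG, with -0.25 ± 0.0886 (SE) and an unadjusted p of 0.00827 in limma. The SG averages include control array 2 of 24 h, which stood apart, and are not given without it. At 24 h the difference of Sqle in SG was -0.54, and -0.24 without that array. Probes 2 and 3 of Insig1 differed in OC by -0.26 and -0.29, with unadjusted p-values of 0.0123 and 0.0138. Whether the KA effect differed between SG and OC was tested at 5, 24 and 72 h, and 0 of the 6 genes were called, against 0.198, 0.370 and 0.163% of all probes. Tests between times, set as 24 minus 5 h, 72 minus 5 h and 72 minus 24 h, also called 0 of 6, against 0.895, 0.191 and 0.529% of all probes in SG and 0.183, 0.136 and 0.300% in OC. For Sqle the effect in SG at 24 h minus that at 5 h was -0.49 (unadjusted p in limma of 0.0324), and for Hmgcs1 -0.52 (0.0299). Without SG control array 2 of 24 h they were -0.18 (0.444) and -0.23 (0.369).

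Time in culture was read within each tissue and treatment. In OC the differences between 72 and 5 h were mostly positive without reaching the threshold, in 5 of the 6 genes after KA (median 0.30) and in 5 of 6 in control explants (median 0.32), and 0 of 6 were called in each. In SG the median was 0.02 after KA, with 3 of 6 positive, and 0.13 in control explants, with 6 of 6 positive, and again 0 of 6 were called. The shares of all probes called were 14.6 and 15.4% in SG after KA and in control explants, and 4.69 and 3.70% in OC. Whether the course differed between SG and OC in control explants was tested, and 0 of 6 genes were called, against 4.18% of all probes.

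Fdps in OC control explants had 13.38, 13.78 and 13.47 (5 h), 13.84, 14.05, 13.30 and 14.24 (24 h), and 13.91, 13.90 and 14.21 (72 h). All 72 h arrays were above all 5 h arrays, as for 8.77% of all probes, and the 24 h arrays spanned both. The difference between 72 and 5 h was 0.46 ± 0.206 (SE), with an adjusted p of 0.283 in limma. After KA the OC arrays had 13.36, 13.42, 13.49 and 13.64 (5 h), 13.80 and 13.33 (24 h), and 13.67, 14.09 and 14.21 (72 h). The difference between 72 and 5 h was 0.51 ± 0.192 (SE), again without overlap, as for 5.72% of all probes, with an adjusted p of 0.142.

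Probe 1 of Sqle in OC had a like order, with 12.71, 12.62, 12.53 and 12.71 (5 h), 12.65 and 12.52 (24 h) and 12.74, 13.10 and 13.13 (72 h) after KA, a difference between 72 and 5 h of 0.34 (adjusted p in limma of 0.21). In control explants it had 12.82, 12.82 and 12.59 (5 h), 12.85, 13.16, 12.47 and 12.88 (24 h) and 13.03, 13.01 and 13.21 (72 h), also a difference of 0.34 (adjusted p of 0.304). The 72 h arrays lay above the 5 h arrays in both treatments, as for 5.72% of all probes after KA and 8.77% in control explants. The second Sqle probe overlapped, with 9.07 to 9.66 (5 h) and 9.37 to 10.10 (72 h) after KA. In control explants it overlapped too, with 9.07 to 9.66 (5 h) and 9.53 to 10.02 (72 h). Idi1 in OC control explants was more scattered, with 7.45, 9.34 and 8.51 (5 h), 8.43, 9.55, 8.39 and 8.47 (24 h), and 8.80, 8.97 and 9.66 (72 h).

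In SG after KA, probe 1 of Sqle was the gene with a called change over time. It had 12.50, 12.59, 12.48 and 12.34 (5 h), 12.20, 12.21 and 11.82 (24 h), and 12.38, 12.65 and 12.73 (72 h). The 24 h arrays lay below all others of this series, and the share of all probes with such an order is not given. The second Sqle probe overlapped, with 8.53 to 9.06 (5 h), 8.42 to 8.95 (24 h) and 8.82 to 9.43 (72 h). Probe 1 rose by 0.51 ± 0.153 (SE) between 24 and 72 h, with an adjusted p of 0.0364 in limma. Of all probes 7.44% were called in this comparison and 3.81% were higher. The difference was 0.17 within the black batch and 0.90 within the blue batch, and the call was lost without any of 3 of the 6 arrays, with an adjusted p of 0.24 without KA array 4 of 24 h. It was also lost with raw signals centred on the array median (0.29, adjusted p of 0.431), with array weights (0.0633), with SG arrays alone (0.0687) and as the mean of the Sqle probes (0.0794). Between 5 and 24 h it differed by -0.40 (adjusted p of 0.295). Hmgcs1, with 14.71, 14.47, 14.26 and 14.30 (5 h), 14.08, 14.04 and 14.00 (24 h) and 14.16, 14.47 and 14.40 (72 h), was also lowest at 24 h, with differences of -0.39 and 0.31 that were not called.

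Insig1 rose in OC control explants by its probes 2 and 3. Probe 2 had 8.18, 8.44 and 8.31 (5 h), 8.68, 8.89, 8.29 and 8.84 (24 h), and 9.30, 8.70 and 8.97 (72 h), and rose by 0.68 ± 0.169 (SE) between 5 and 72 h, with an adjusted p of 0.0143 in limma. Probe 3 had 8.05, 8.53 and 8.37 (5 h), 8.75, 8.90, 8.09 and 8.91 (24 h), and 9.27, 8.61 and 9.08 (72 h), and rose by 0.67 ± 0.191 (SE), with an adjusted p of 0.0428. Arrays of 72 h lay above those of 5 h with both probes, as for 8.77% of all probes. The differences were 0.53 and 0.55 within the black batch and 1.13 and 1.22 within the purple batch. The call of probe 2 was lost without control array 2 of 72 h (0.53, adjusted p of 0.14) and without control array 1 of 5 h (0.62, adjusted p of 0.077), and the call of probe 3 was lost without any of 4 of the 6 arrays, with raw signals centred on the array median (adjusted p of 0.0501), with neqc (0.0996) and with OC arrays alone (0.0955). Probe 1 had a difference of -0.19 ± 0.593 (SE) and was not called. After KA the differences of probes 2 and 3 in OC were 0.38 and 0.51, with adjusted p-values of 0.208 and 0.108.

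**Figure D4:**
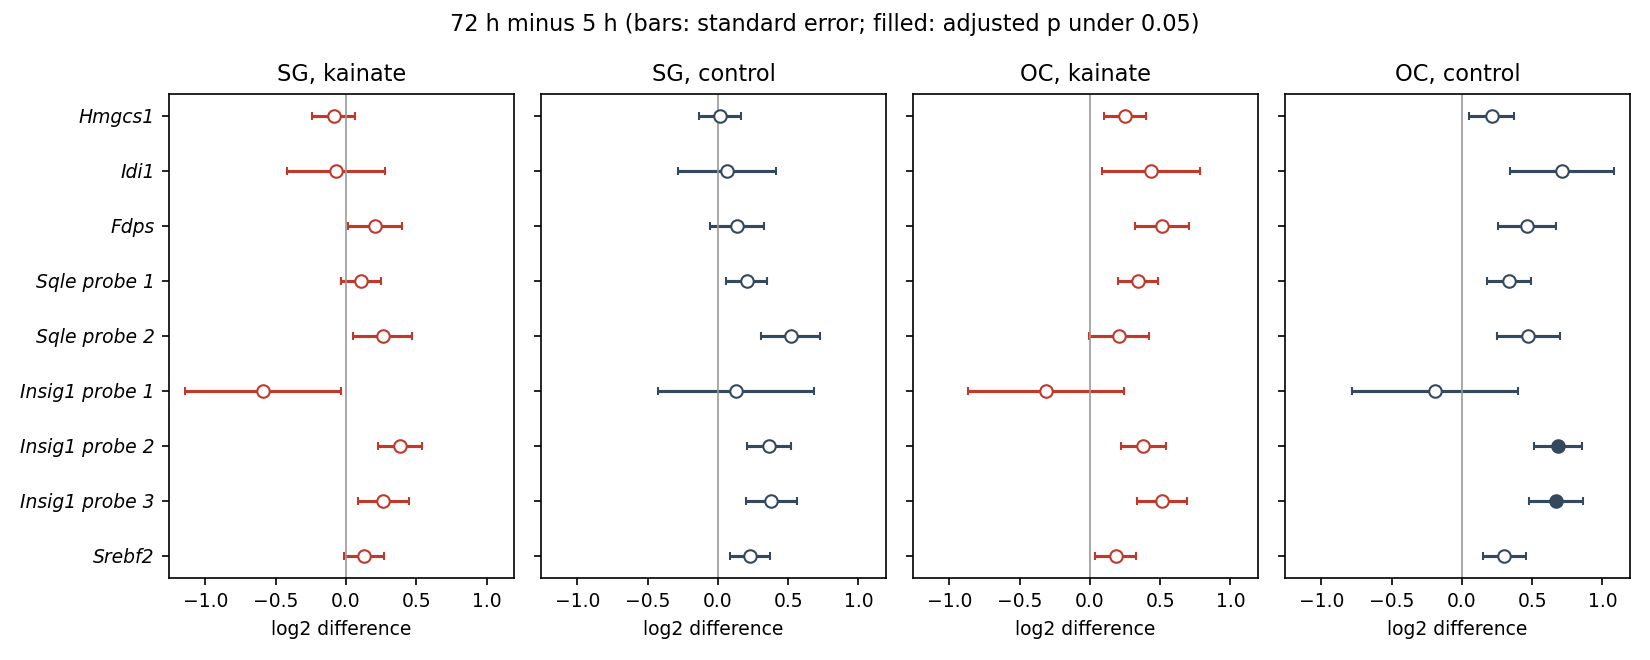
Log2 difference 72 h minus 5 h (horizontal axes) for 9 probes of the 6 genes in each tissue, KA left of control; bars are standard errors and filled points have an adjusted p under 0.05. Probes 2 and 3 of Insig1 in OC control explants (0.68 and 0.67) are the filled points.

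Several other enzymes of the pathway changed over time. Between 5 and 72 h, 4 of 14 were higher and 1 lower in SG after KA, 4 higher and 0 lower in SG control explants, and 2 higher and 0 lower in OC in each treatment. Of all probes 7.25% were called higher in SG after KA (7.38% lower), 8.18% higher in SG control explants, and 2.46 and 1.94% higher in OC after KA and in control explants. Hsd17b7 in OC was higher at 72 h by 1.05 after KA and 1.02 in control explants, and Tm7sf2, a sterol reductase, by 0.62 in both, with adjusted p-values in limma between 5.40e-05 and 0.0042. Idi2 in SG was called higher at 72 h, with means of 9.67 after KA and 9.50 in control explants, against 7.96 and 7.98 at 5 h, where it was above background on 2 of 4 KA and 1 of 4 control arrays. Of 15 genes of fatty acid synthesis, 5 were higher in each of the 4 comparisons, among them Scd1, the stearoyl-CoA desaturase, which rose in OC by 1.45 after KA and 1.69 in control explants. Srebf1 was higher in SG by 0.64 after KA and 0.71 in control explants, while Srebf2 differed by 0.13 and 0.23 and was not called. Apoe was higher in OC after KA by 0.83 (adjusted p of 0.0298). Cell type markers also differed between 72 and 5 h. The level of 14 neuron markers in SG lay between 8.73 and 8.98 at 72 h after KA, against 9.52 to 9.71 at 5 h, and between 8.84 and 9.01 at 72 h in control explants, against 9.81 to 10.02 at 5 h. The level of 10 macrophage and leukocyte markers in OC lay between 8.13 and 8.97 at 72 h after KA, against 8.06 to 8.19 at 5 h, and up to 9.06 at 72 h in control explants, against 7.91 to 8.23 at 5 h, with overlap in both. Hair cell markers in OC were higher at 72 h, at 10.34 to 10.73 after KA, against 10.18 to 10.28 at 5 h. In control explants they lay between 10.47 and 10.57, against 10.20 to 10.31. Neuron markers in OC were lower at 72 h, at 8.86 to 8.90 after KA, against 9.04 to 9.15. In control explants they lay between 8.86 and 8.89, against 9.01 to 9.23. Supporting cell markers in OC overlapped between these times. The part of the markers in the differences over time was not tested.

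In the order of the 12 group means, OC control at 72 h had the highest mean for Hmgcs1 (14.86), Sqle (13.08), Fdps (14.01) and Idi1 (9.14), and SG at 24 h after KA had the lowest mean for Hmgcs1 (14.04), Sqle (12.08), Fdps (12.32), Idi1 (7.97) and Srebf2 (9.83). For Fdps all 6 OC means lay above all 6 SG means, and the gap between OC at 5 h after KA (13.48) and SG control at 72 h (12.84) was 0.64, with ranges that did not overlap. Below the next SG group, the mean of SG at 24 h after KA was lower by 0.31 for Hmgcs1, 0.40 for Sqle and 0.22 for Fdps, without overlap with that group. All other neighbours in the order overlapped for these genes, for Idi1 and for Srebf2, whose highest mean was in SG control at 72 h (10.28). Sqle is read here by its probe 1. The second Sqle probe also had its highest mean in OC control at 72 h (9.84). Its lowest mean was in SG control at 24 h (8.64), next to SG at 24 h after KA (8.65). Probe 1 of Insig1 was lowest in OC at 72 h after KA (8.88), with 9.22 in SG at 24 h after KA. Groups that were not neighbours could still overlap. For Fdps the SG arrays at 24 h after KA (12.18 to 12.40) overlapped the SG control arrays of 24 h (lowest 12.25). The order was set by ranking these same means, and the share of all probes without such overlap is not given.

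Probe 1 of Insig1 separated the arrays by the replicate number of the labels, which was noticed after the values were seen. The 10 arrays numbered 4 had a log2 signal between 7.91 and 8.85, against 8.91 to 10.53 on the other 28 arrays, in both tissues, all times and both treatments. Of all 25697 probes, 45 (0.175%) had the arrays of number 4 apart from all others. The number took 82.1% of the variance of probe 1 within groups, against a median of 15.9% over all probes, and 31 of 13097 probes above background had a larger share. Array batch took 62.0% of it, against a median of 19.2% over all probes. All 7 arrays of the blue batch (7.91 to 8.49) carry number 4, so number and batch cannot be told apart in that batch. The arrays of number 4 in the green batch (8.60 and 8.85) and the black batch (8.39) also lay below all arrays of other numbers. For probes 2 and 3 of the same gene the share was 4.25 and 5.92%. Within groups, probes 2 and 3 correlated at 0.82 over the 38 arrays, and probes 1 and 2 at 0.12. Groups held unequal numbers of such arrays. In SG at 24 h the KA group has an array of number 4 and the control group has none, and its part in the difference of probe 1 was not tested. Without the 10 arrays of number 4, a setting chosen after the data were seen, 0 of the 6 genes were called for KA in SG at 24 h.

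**Figure D5:**
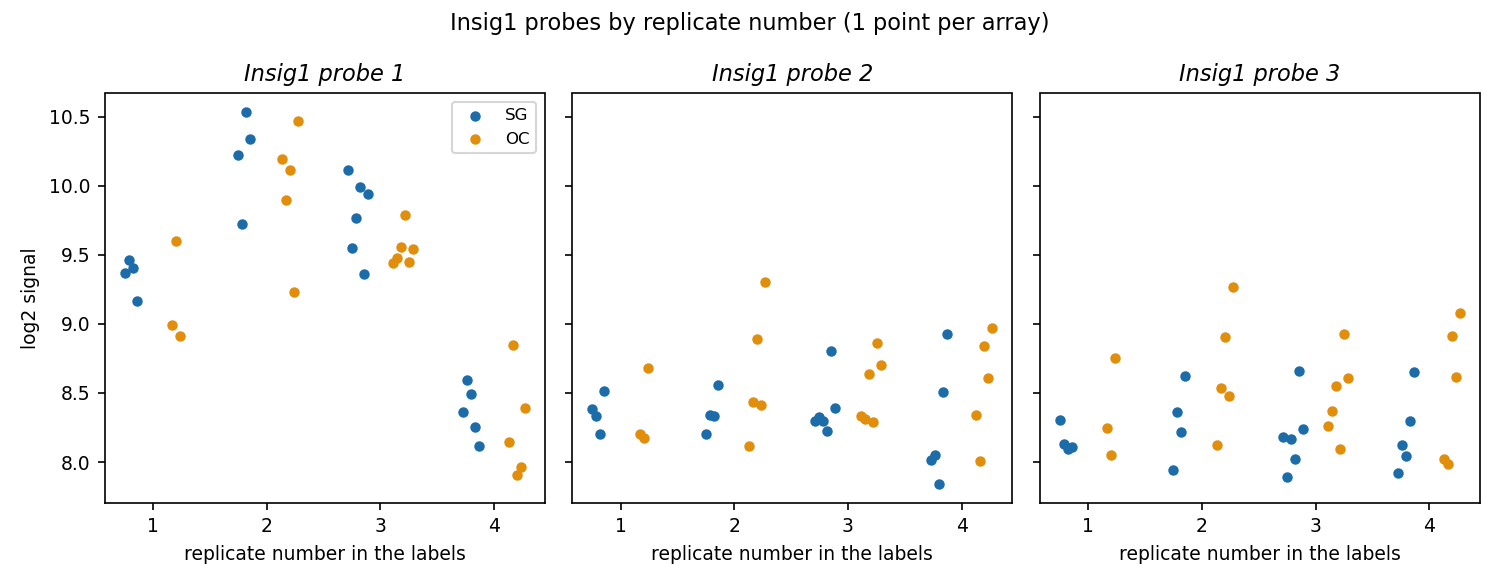
Log2 signal of 3 probes of Insig1 (vertical axis, shared) by the replicate number in the labels (horizontal axis), with SG left of OC; each point is 1 array. With probe 1 the 10 arrays of number 4 (7.91 to 8.85) lie below the other 28 arrays (8.91 to 10.53), and with probes 2 and 3 they do not stand apart.

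The enzymes, with Sqle read by its probe 1, were correlated with each other, less so for Idi1 within groups. Across the 12 group means, which share tissue and time, the correlation (Pearson r) was 0.83 between Sqle and Fdps, 0.89 between Hmgcs1 and Sqle, 0.89 between Hmgcs1 and Fdps and 0.92 between Idi1 and Fdps. Within groups, over 38 arrays that share batches, it was 0.84, 0.75, 0.65 and 0.38 for the same pairs. Idi1 correlated with Hmgcs1 at 0.91 and with Sqle at 0.84 across group means, and at 0.25 and 0.31 within groups. The second Sqle probe correlated with Hmgcs1 at 0.69 across group means and 0.14 within groups, and with Fdps at 0.83 and 0.64. With probe 1 of Sqle it correlated at 0.85 across group means and 0.49 within groups. Srebf2 correlated with the mean of the other genes at 0.22 across group means and 0.18 within groups, where the medians over other probes were 0.07 and 0.003. Among 10590 probes compared, those whose 12 group means were most like the mean of the 6 genes were Cyp51 (r of 0.933), Dctn3 (0.929), Tada2a (0.926), Dhcr7 (0.925), Msmo1 (0.921) and Stard4 (0.920), of which Cyp51, Dhcr7 and Msmo1 are enzymes of the pathway. Within groups the list was another, led by Abcf2 (0.779), Xxylt1 (0.752) and Hspd1 (0.751). The means of the genes used for Srebf2 and for these lists were not scaled by gene and included probe 1 of Insig1. Within groups that probe had an SD of 0.79, against 0.20 to 0.49 for the probes of the other genes. Replicate number took 82.1% of its variance there, so the lists within groups lean on that probe.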

How the data were processed

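Expression was measured on 38 Illumina MouseRef-8 arrays. Groups and replicate numbers come from the labels, and array batch was read by eye from 5 colours in the bar of the study's clustering plot, which no other source used here states, so the within-batch values rest on that reading. The deposited raw signal intensities are linear and not normalized between arrays. The deposited normalized values are on a log2 scale, and were matched to within 4.99e-09 by log2 and quantile normalization of the raw signals. The authors also deposited a detection p-value for each probe, used here to call a probe above background at a p under 0.01. The labels name limma without a version. No authors' fold changes were used.

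Of 25697 probes, 23978 carried a gene symbol in the platform annotation, for 16593 genes. All 38 arrays entered a single limma fit (version 3.58.1, R 4.3.3) that gave each group its mean, with moderated variances (26 residual and 5.36 prior degrees of freedom), and 39 comparisons were made. The fits were tested on simulated data. A lone array left in a group was taken to have the spread of the other groups. The members and the gene lists were chosen with earlier results of these data known, so nothing here is independent support for them. The genes named are the 7 members with all probes, up to 6 genes of the pathway lists past the threshold per main comparison, 10 pathway genes chosen whatever their values (Abca1, Apoe, Cyp51, Dhcr7, Lss, Msmo1, Srebf1 and others that are not reported here), and those most correlated with the mean of the members. The lists held 91 pathway genes (73 with a probe) and 89 cell type markers (76 with a probe). Alternatives were raw signals centred on the array median, background correction with neqc (offset 16), quantile normalization within each tissue, the series matrix (identical values), probes above background alone, the other threshold, the mean of a gene's probes, arrays of the same tissue alone, array weights, batch and replicate number as blocks, and each array left out. SG and OC arrays of the same time, treatment and number had residuals that correlated above 0.1 in 16 of 16 pairs (0.206 to 0.662). Some of these pairs also share an array batch. KA and control arrays of the same tissue, time and number, which are different explants, correlated above 0.1 in 12 of 15 pairs. The correlation therefore cannot show that such SG and OC arrays share an explant, and the labels do not say so.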

Additional observations from a re-analysis of the deposited data

Results flagged for a closer look

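In groups of 4 arrays, 3 of 40 combinations of group and probe had an array whose gap to its nearest neighbour took most of the group's range, and chance flags about 1 in 20 groups. Idi1 had 9.33 on array 2 of OC at 5 h after KA, where the next array had 8.42. Idi1 also had 9.55 on array 2 of OC control at 24 h, where the next had 8.47. Probe 2 of Insig1 had 8.05 on array 4 of SG control at 5 h, where the next had 8.32.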

How the results depend on the processing

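Outside the fits that left out a single array, the median of the 6 genes for KA in SG at 24 h stayed between -0.57 and -0.42, while the number of genes called was 0, in place of 1, with raw signals centred on the array median, arrays of the same tissue alone, array weights, the mean of a gene's probes, at an adjusted p under 0.05, and without the 10 arrays of replicate number 4, the last chosen after the data were seen. With Insig1 read by its other 2 probes, also chosen after the data were seen, 1 gene in place of 0 was called between 72 and 5 h in OC control explants. Leaving out each array in turn, the median for KA in SG ranged from -0.05 to 0.05 (5 h), -0.87 to -0.14 (24 h) and -0.22 to 0.00 (72 h). In OC the median for KA ranged from -0.14 to -0.07 (5 h), -0.27 to -0.02 (24 h) and -0.24 to -0.06 (72 h). For SG minus OC the median ranged from -0.36 to -0.26, with 4 genes called each time. For 72 minus 5 h it ranged from -0.04 to 0.13 in SG after KA, 0.04 to 0.23 in SG control, 0.15 to 0.36 in OC after KA and 0.24 to 0.35 in OC control explants. Of 577 alternatives of 22 single-probe results, 494 kept the call, 83 lost it and 0 changed direction. The residuals of KA and control arrays that share tissue, time and number correlated at over 0.1 in 12 of 15 pairs (-0.0101 to 0.599, median 0.284). Since this was not so in all pairs, the number was not used as a pairing. With the replicate number as a block, the median for KA in SG at 24 h was -0.42, and the probes called for KA, as a fixed term and as a random block, were 138 and 157 in SG (5 h, 100 without), 279 and 324 (24 h, 282 without) and 69 and 79 (72 h, 46 without), and in OC 44 and 61 (5 h, 35 without), 115 and 113 (24 h, 70 without) and 92 and 114 (72 h, 66 without). The block changed no call of the 6 genes. With SG and OC arrays of the same time, treatment and number as a random block, 9349 probes were called between the tissues, against 8480. The 4 genes kept their calls. The cause of these changes was not tested. The groups of 2 to 4 arrays limit the precision.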

Other observations

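The fatty acid branch, which shares the SREBP system with the cholesterol enzymes, differed between the tissues by gene: Acss2, which makes acetyl-CoA from acetate, was lower in SG than in OC by -1.35 on the log2 scale, the mean of 6 conditions. Stard4, a carrier of sterols in the cytoplasm, had a difference of -0.31 between KA and control explants in SG over the 3 times, with an unadjusted p of 0.00343 and an adjusted p of 0.999 in limma. That average includes SG control array 2 of 24 h, without which the 24 h difference of Stard4 was -0.17. Read by its probes 2 and 3 together, a choice made after the data were seen, Insig1 differed by -0.24 between SG and OC (adjusted p of 0.00818) and by -0.27 between KA and control explants in OC over the 3 times (unadjusted p of 0.0098).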
